A study of Mus musculus with 4 samples.

Results

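The 10 genes described here encode proteins of antimicrobial and acute mucosal defense, namely *S100a8*, *S100a9*, *Lcn2*, *Ltf*, *Saa3*, *Slpi*, *Camp*, *Reg3g*, *Wfdc2* and *Defb1*. They were chosen by name from the 29924 gene names on the array, with earlier results of these data known. All 10 were found, on 12 of 39429 probes that are not controls. RNA was taken from ureters explanted at P0 and kept in culture for 8 days with the vehicle DMSO or with 2 µM purmorphamine, an agonist of Smoothened that turns on SHH signaling. *Pparg-cKO* ureters were *Pax2-cre/+;Pparg fl/fl* and lack exons 2 and 3 of *Pparg*, which encodes a nuclear receptor for lipids, in the cells in which *Pax2-cre* is active, the epithelium of the ureter and the renal collecting ducts. Control ureters came from littermates without cre, labelled Pparg (fl/?), so that they too carry a floxed allele, on an outbred background. Each of the 4 groups (control with DMSO, control with purmorphamine, *Pparg-cKO* with DMSO, *Pparg-cKO* with purmorphamine) had 1 male and 1 female pool of ureters, named replicate 1 and replicate 2, and the number of ureters per pool is not given in the sources used here.

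Each of the 4 two-color arrays held the DMSO pool and the purmorphamine pool of 1 genotype and 1 sex. Male DMSO pools carried AlexaFluor555 and male purmorphamine pools AlexaFluor647, and the dyes were exchanged in the female pools, so that among pools of 1 treatment sex and dye cannot be told apart. Between 66.3% and 70.5% of spots were well above background in each of the 8 channels, and 0 spots were saturated. *Ptch1*, a direct target of SHH signaling, rose with purmorphamine by 1.00 on the log2 scale in control and 1.62 in *Pparg-cKO* (adjusted p of limma 0.044 and 0.015). *Gli1*, a further gene of the pathway that was looked up, had values of 1.06 and 1.34 and was not called (adjusted p of limma 0.12 and 0.054). Its control arrays gave 1.57 (male) and 0.56 (female). The *Pparg* probe gave log2 levels of 14.79 to 15.32 in control and 15.55 to 16.11 in *Pparg-cKO* pools. Which exons this probe reads was not checked, and the studied allele leaves an mRNA without the deleted exons, so these levels were not used as a check of the genotype.

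Mucosal surfaces keep bacteria away with secreted proteins that starve, lyse or aggregate them. Some of these proteins are made at a steady level by resting epithelium, others are induced when cytokines such as IL-1, IL-17 or IL-6 act on epithelial cells, and several are also stored in the granules of neutrophils. *S100a8* and *S100a9* encode the subunits of calprotectin, which withholds zinc and manganese, *Lcn2* encodes lipocalin 2, which binds bacterial siderophores, and *Ltf* encodes the iron-binding lactoferrin. *Camp* encodes the precursor of the cathelicidin peptide, *Reg3g* a lectin that acts on Gram-positive bacteria, and *Defb1* a beta-defensin known as a steady product of epithelia. *Slpi* and *Wfdc2* encode small secreted proteins with whey acidic protein domains, of which SLPI inhibits neutrophil elastase, and *Saa3* encodes a serum amyloid A of the acute phase response that is made outside the liver.

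All levels are given as log2 intensity of 1 channel after background correction and normalization. A spot was called well above background by the scanner software, and 8 of the 10 genes passed this in all 8 channels. *S100a9* and *Ltf* did not. *S100a9* passed in 6 channels, all but the female control pools, and *Ltf* in 5 channels, the 4 *Pparg-cKO* pools and the male control pool with DMSO. All 10 genes entered the test, for which 20522 genes in all had a probe that passed in both pools of 1 or more groups. *S100a9* and *Ltf* entered only through the *Pparg-cKO* groups, in which they were higher, so that their genotype differences and their part in any count over the 10 genes are given as a description. *S100a8*, *Ltf* and *Saa3* were each read by a single 60-base oligonucleotide, and these 3 are shown as examples, *Saa3* because it passed the test in both genotypes and *S100a8* and *Ltf* because their levels were uneven between pools. The probes matched mm9 at chr3:90473778-90473837, chr9:110942873-110942932 and chr7:53970389-53970448.
S100a8: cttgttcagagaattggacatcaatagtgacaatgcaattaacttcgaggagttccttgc
Ltf: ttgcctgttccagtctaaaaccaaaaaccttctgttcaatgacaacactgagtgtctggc
Saa3: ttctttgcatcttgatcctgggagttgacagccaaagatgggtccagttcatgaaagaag

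*Camp* and *Wfdc2* had 2 probes each, and the brighter one stands for the gene. The 2 *Camp* probes are annotated at chr9:109749911-109749970 and chr9:109749901-109749950 of mm9, and the second interval is shorter than its 60-base probe. Aligned by their letters, and not by these intervals, the probes share 50 bases and differ at 2 of them. These are the substitutions A6G and T10C, counted from 1 at the first shared base. The start of the shared part, 22 bases with the differing bases in capitals, shows that these probes are not independent measurements.
Camp, brighter probe: cagccAgagTagtaggcctgcc
Camp, dimmer probe: cagccGgagCagtaggcctgcc

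Each probe was printed on 4 spots. Over the 75 pairs of a gene and a channel that were well above background, the SD over these spots had a median of 0.052 on the log2 scale and reached 0.35. In the 5 pairs that were not, it lay between 0.26 and 0.81.

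**Figure D1:**
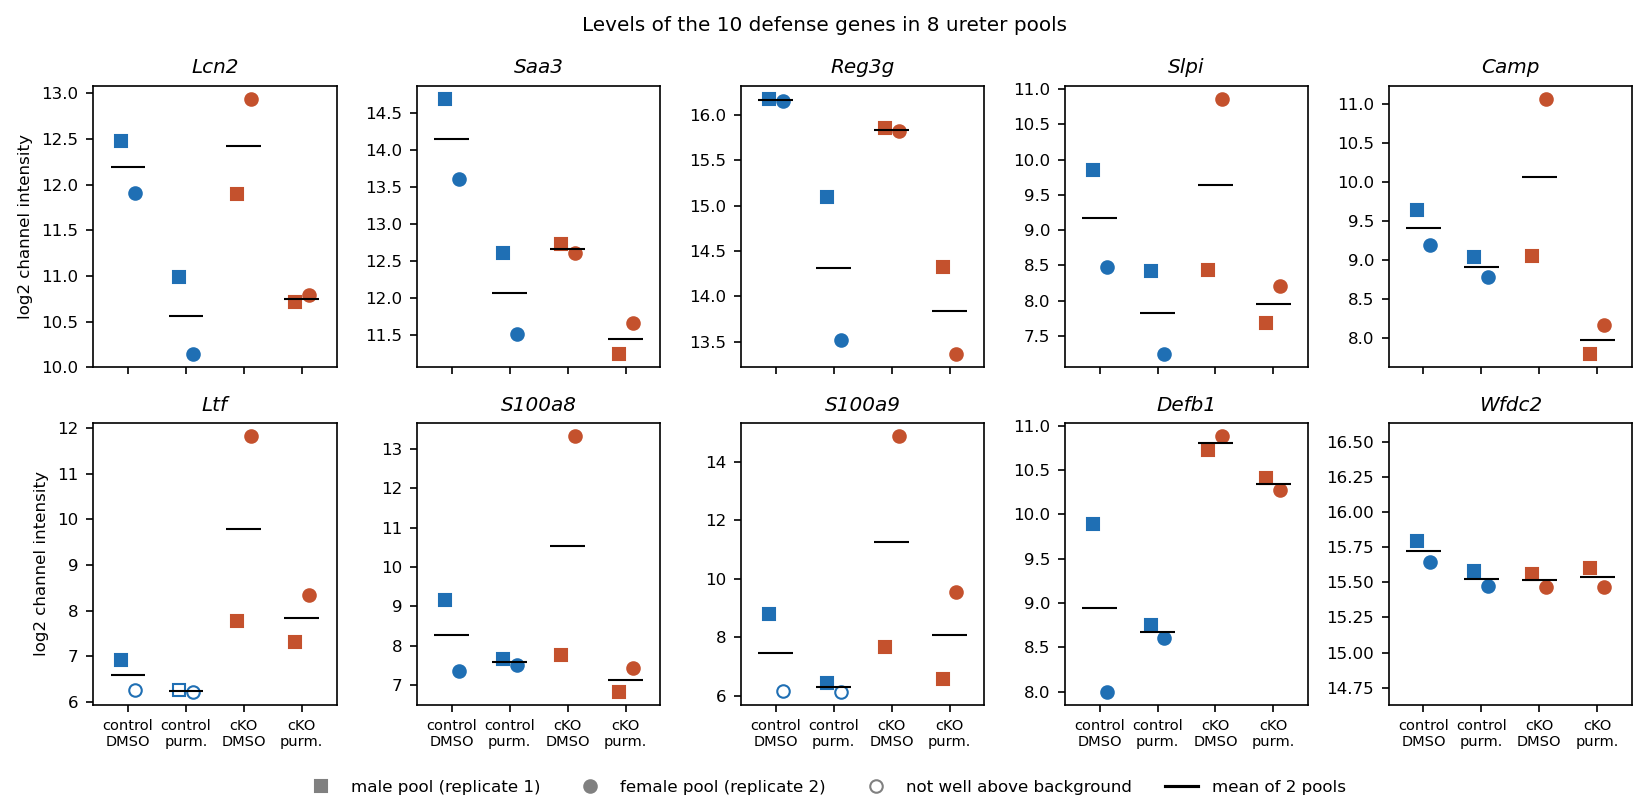
Each panel gives 1 gene as log2 channel intensity (vertical axis) in the 4 groups (horizontal axis), with squares for male pools, circles for female pools, control in blue, *Pparg-cKO* in red, open symbols for probes not well above background and a line for the mean of 2 pools. The vertical range differs between panels. *Lcn2*, *Saa3*, *Reg3g* and *Slpi* are lower with purmorphamine than with DMSO on every array. The female *Pparg-cKO* pool with DMSO is the highest of the 8 pools for 7 of the 10 genes, for *Defb1* by only 0.16 over the male one.

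One pool stood apart before any comparison. In the female *Pparg-cKO* pool with DMSO, 7 of the 10 genes (*S100a8*, *S100a9*, *Lcn2*, *Ltf*, *Slpi*, *Camp* and *Defb1*) had their highest level of the 8 channels. How many of all genes tested peaked in that pool was not counted. *S100a9* was at 14.87 there and at 7.66 in the male *Pparg-cKO* pool with DMSO, a difference of 7.22 that ranked 2 among the 20522 genes tested. *S100a8* differed by 5.57, *Ltf* by 4.06, *Slpi* by 2.43 and *Camp* by 2.01, at ranks 15, 30, 56 and 66. The difference was 1.04 for *Lcn2* (rank 154) and only 0.16 for *Defb1* (rank 3502). In control with DMSO *S100a9* was at 8.79 in the male pool and not well above background in the female pool. Over all genes tested the median absolute difference between the pools was 0.12 in *Pparg-cKO* and 0.17 in control, and 47 genes were at least 8-fold higher in the female than in the male *Pparg-cKO* pool with DMSO.

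The genes of other cell types were read in the same pools. Over the 10 neutrophil genes looked up, the summed scaled intensity was 11436 in the female and 12716 in the male *Pparg-cKO* pool with DMSO, and 10017 to 13044 in the control pools with DMSO. Here a scaled intensity is the scanner's processed signal set so that the 75 percentile of a channel is 1500, with a floor of 15. The sum is led by the bright genes, in that female pool *Csf3r*, *Mmp9* and *Ly6g* at 5998, 2364 and 1260. Dim genes of the list hardly move it, so it does not measure how many neutrophils a pool holds. Of the defining neutrophil genes, *Mpo* was at 100.2 in that female pool and 130.2 in the male one, *Elane* at 205 and 201, *Ly6g* at 1260 and 1587, and *Csf3r* at 5998 and 7480, so none of these 4 was at its highest in the female pool. *Ngp*, which encodes a neutrophil granule protein, was an exception. It was at 395 in the female *Pparg-cKO* pool with DMSO, at 37.4 in the female *Pparg-cKO* pool with purmorphamine and at the floor in the other 6 channels. *Cxcr2* was well above background in that female pool alone, at 23.8.

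Many genes of cornified epithelium were also high in that pool. This list of 12 genes, of which 11 were on the array, was drawn up after the values were seen. Its summed scaled intensity was 48309 in the female *Pparg-cKO* pool with DMSO and between 4854 and 8416 in the other 7 pools. *Krt1*, a keratin of keratinizing cells, was at 8048 there and at 27.6 to 223 elsewhere, and *Lor*, the loricrin of the cornified envelope, was at 18536 there and at 135 to 519 elsewhere. All 11 were well above background in that pool, against 8 to 10 in the other pools. *Ivl* and *Tgm1* were exceptions and were not at their highest there. *Ivl*, which encodes involucrin, was at 2406 in that pool and at 3274 to 4901 in the control pools, and *Tgm1*, which encodes a transglutaminase, was at 345 there and at 498 and 378 in the control pools with DMSO. The part of these cells or of this differentiation in the levels of the 10 genes was not tested, and values of single genes below that rest on this pool are also given without it. In bulk RNA, fewer cells of a type and less RNA per cell cannot be told apart.

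**Figure D2:**
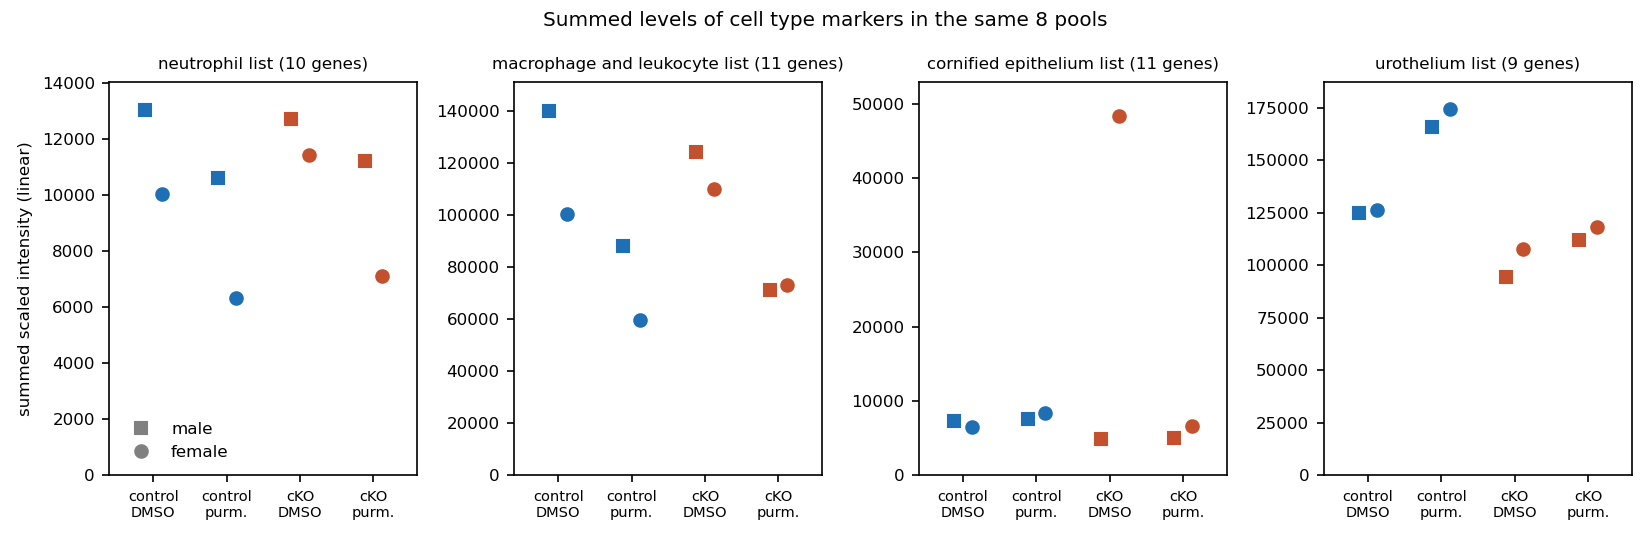
Points give the summed scaled intensity (linear vertical axis from 0) of the marker lists in each pool, squares male and circles female, with control in blue and *Pparg-cKO* in red. The cornified epithelium sum of 48309 in the female *Pparg-cKO* pool with DMSO is the outlying point. The neutrophil sum of that pool, 11436, lies within the range of the control pools with DMSO, but it is led by a few bright genes and dim ones such as *Ngp* hardly move it.

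To find out how the defense genes respond to SHH pathway activation, purmorphamine was compared with DMSO within each array. Most values lay below 0. In control ureters all 10 had a fitted value below 0, with a median of -0.93 against 0.015 over all genes tested. In *Pparg-cKO* ureters 9 of 10 were below 0, with a median of -1.83 against -0.0023 over all genes. The medians and counts over the 10 genes include *S100a9* and *Ltf*, which entered only through the *Pparg-cKO* groups, and are a description. In control neither of these genes was well above background in either female pool. *Lcn2*, *Saa3*, *Reg3g* and *Slpi* were at least 1.5-fold lower with purmorphamine on all 4 arrays, 4 of 10 genes where 2.06% of all genes tested met this. Because the 10 genes were chosen with earlier results of these data known, the 2 shares are set side by side as a description and not as a test. Past the adjusted threshold of 0.05 were 1 gene in control (*Saa3*), where 1.08% of genes were called lower, and 2 in *Pparg-cKO* (*Saa3* and *Lcn2*), where 2.95% were. At an unadjusted p under 0.05, 4 of the 10 genes were lower in control and 8 in *Pparg-cKO*, and 0 were higher, where 4004 and 4536 of all 20522 genes tested had such a p in either direction. When the female *Pparg-cKO* array was left out, each *Pparg-cKO* value below 0 except that of *Saa3* lay nearer 0. The median of -1.83 thus rests in part on that array, and the count of 8 includes it.

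*Saa3* fell in both genotypes. In control its level was 14.69 (male pool) and 13.61 (female pool) with DMSO, and 12.61 and 11.52 with purmorphamine. In *Pparg-cKO* pools it was 12.73 and 12.61 with DMSO and 11.24 and 11.67 with purmorphamine. Each purmorphamine pool lay below each DMSO pool of its genotype. *Saa3* fell by 2.09 on the log2 scale in control (standard error 0.16, adjusted p 0.020), a 4.24-fold decrease, and the male and female arrays gave -2.08 and -2.09. This call was lost at nearly the same size with the scanner's processed signals (adjusted p 0.15), with no filter on dim probes (0.059), with the deposited score (0.13) and without the male or the female control array (0.11 and 0.093). It fell by 1.22 in *Pparg-cKO* (standard error 0.16, adjusted p 0.029), a 2.32-fold decrease, with -1.49 and -0.94 on the arrays. The decrease was smaller in *Pparg-cKO* in both sexes, by 0.87 in the fit, but this difference did not pass the test over all genes (adjusted p 0.9999, unadjusted 0.011).

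*Lcn2* was at 12.47 and 11.91 in the male and female control pools with DMSO and at 10.99 and 10.14 with purmorphamine. In *Pparg-cKO* it was at 11.90 and 12.94 with DMSO and at 10.71 and 10.79 with purmorphamine. The groups did not overlap in either genotype. *Lcn2* fell by 1.67 in *Pparg-cKO* (standard error 0.24, adjusted p 0.036), a 3.18-fold decrease. In control the value was -1.63 (standard error 0.24, adjusted p 0.062), on the other side of the threshold at nearly the same size. The difference between the genotypes was -0.043 (standard error 0.35). Without the female *Pparg-cKO* array, *Lcn2* was at -1.19 in *Pparg-cKO* (adjusted p 0.097) and the call was lost, whereas *Saa3* kept it at -1.49 (adjusted p 0.048). Without the male *Pparg-cKO* array *Saa3* lost its call there, at -0.94 (adjusted p 0.066). With 1 array left in *Pparg-cKO*, these p-values take the spread from the control arrays.

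*Reg3g* had levels of 16.18 and 16.16 in control with DMSO and 15.10 and 13.52 with purmorphamine. In *Pparg-cKO* they were 15.86 and 15.82 with DMSO and 14.32 and 13.36 with purmorphamine. The DMSO pools of the gene were close to each other and the purmorphamine pools were spread, with the female pool lower in both genotypes. The fitted values were -1.86 in control (standard error 0.42, adjusted p 0.11) and -2.00 in *Pparg-cKO* (standard error 0.42, adjusted p 0.068). *Slpi* was at 9.86 and 8.48 in control with DMSO and 8.42 and 7.24 with purmorphamine, and at 8.43 and 10.86 in *Pparg-cKO* with DMSO and 7.69 and 8.21 with purmorphamine. The purmorphamine pools were below the DMSO pools, with -1.34 in control (adjusted p 0.20) and -1.70 in *Pparg-cKO* (adjusted p 0.11). Without the female *Pparg-cKO* array *Slpi* was at -0.74 and *Reg3g* at -1.53 in *Pparg-cKO*.

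The genes that were high in the female *Pparg-cKO* pool gave the most uneven responses. *Camp* was at 9.05 and 11.06 in *Pparg-cKO* with DMSO and at 7.79 and 8.17 with purmorphamine, a fitted value of -2.07 (standard error 0.38, adjusted p 0.053) that became -1.26 without the female array. In control its values were 9.64 and 9.19 against 9.04 and 8.78, a fitted value of -0.51 (adjusted p 0.56). The dimmer *Camp* probe gave -1.24 and -2.59 on the *Pparg-cKO* arrays and -0.58 and -0.39 on the control arrays, the same directions as the brighter one. The difference between the genotypes for *Camp* was -1.57, larger than its standard error of 0.54 but not past the adjusted threshold, and it was -0.75 without the female *Pparg-cKO* array.

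*S100a8* was at 7.76 and 13.33 in *Pparg-cKO* with DMSO and at 6.83 and 7.42 with purmorphamine. The male array thus gave -0.93 and the female array -5.91, and the fitted value of -3.42 had a standard error of 1.18 (adjusted p 0.18). In control *S100a8* was at 9.17 and 7.36 with DMSO and 7.66 and 7.50 with purmorphamine, so that the male array gave -1.51 and the female array 0.14. *S100a9* went from 7.66 and 14.87 to 6.59 and 9.56 in *Pparg-cKO*, with -1.07 on the male array and -5.31 on the other, and from 8.79 to 6.44 in the male control pools. *Ltf* went from 7.77 and 11.83 to 7.30 and 8.35 in *Pparg-cKO*, -0.46 and -3.48 on the arrays. In control *Ltf* was well above background in 1 of 4 pools, the male pool with DMSO at 6.92, so no fold is given. Without the female *Pparg-cKO* array, *S100a8*, *S100a9* and *Ltf* stood at -0.93, -1.07 and -0.46 in *Pparg-cKO*, and without the male *Pparg-cKO* array at -5.91, -5.31 and -3.48. Each of these is the value of 1 array, whose own spread cannot be estimated.

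*Wfdc2* and *Defb1* had the values nearest 0 of the 10 genes in *Pparg-cKO*. *Wfdc2* was between 15.47 and 15.79 in all 8 channels, and its fitted values were -0.19 in control (standard error 0.097) and 0.021 in *Pparg-cKO* (standard error 0.097). Its second probe gave -0.16 and 0.090 as means of 2 arrays. *Defb1* gave -0.27 in control, from -1.14 (male array) and 0.61 (female array), and -0.46 in *Pparg-cKO*, from -0.31 and -0.61.

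**Figure D3:**
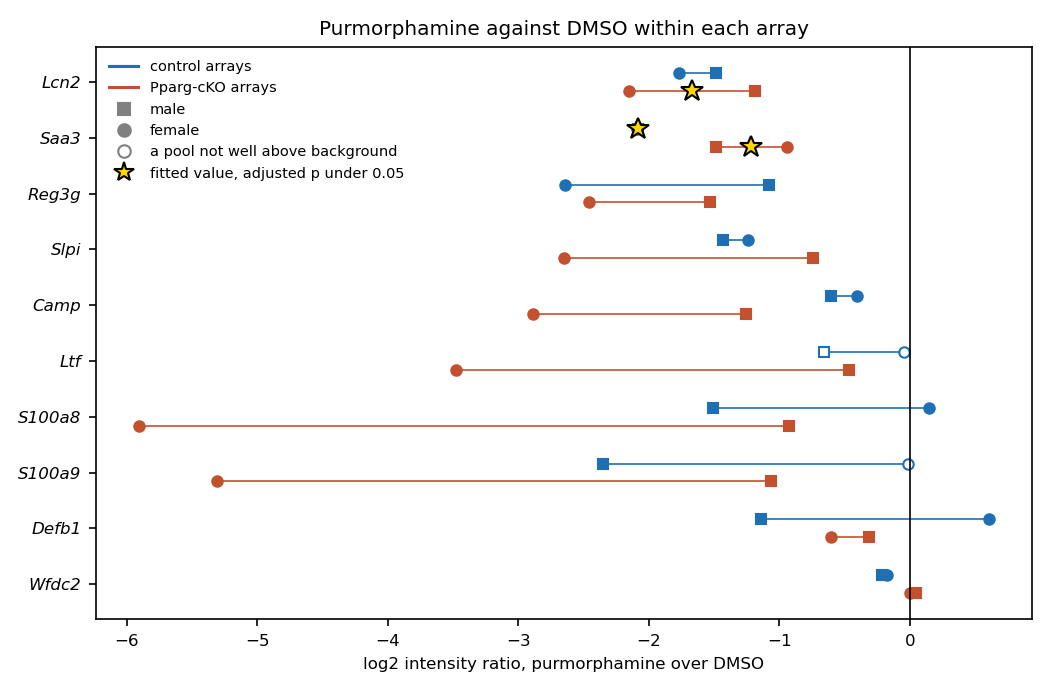
For each gene, the log2 intensity ratio of purmorphamine over DMSO on the male (square) and female (circle) array of control (blue) and *Pparg-cKO* (red) is shown, joined by a line, with open symbols where 1 or both pools were not well above background and a star at the fitted value where the adjusted p was under 0.05. *Saa3* lies at -2.08 and -2.09 in control, where the star covers both symbols, and *S100a8* spans -0.93 to -5.91 in *Pparg-cKO*.

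Genes that act upstream of these were compared in the same way. In a list of 29 cytokine, receptor and NF-kB genes, all of them tested, 7 fell in control and 4 in *Pparg-cKO* and 0 rose. Of all genes tested, 1.08% were called lower in control and 2.95% in *Pparg-cKO*, which holds for the lists below too. The lists were chosen with earlier results of these data known, so their counts are a description. The medians were -0.41 and -0.53, and 27 and 28 of the 29 values were below 0. *Il1b*, the cytokine that induces several of the defense genes in epithelia, fell by 2.29 in control (standard error 0.12, adjusted p 0.012) and was at -2.31 in *Pparg-cKO* (adjusted p 0.010). *Cxcl1* and *Cxcl5*, chemokines that attract neutrophils, fell in both genotypes, with -2.19 and -2.58 in control and -2.18 and -3.53 in *Pparg-cKO*. *Il6* fell by 2.58 in control (adjusted p 0.045) and had a value of -1.62 in *Pparg-cKO* (adjusted p 0.061). *Tlr4*, a receptor for bacterial lipopolysaccharide, fell in both, with -1.20 and -0.71.

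**Figure D4:**
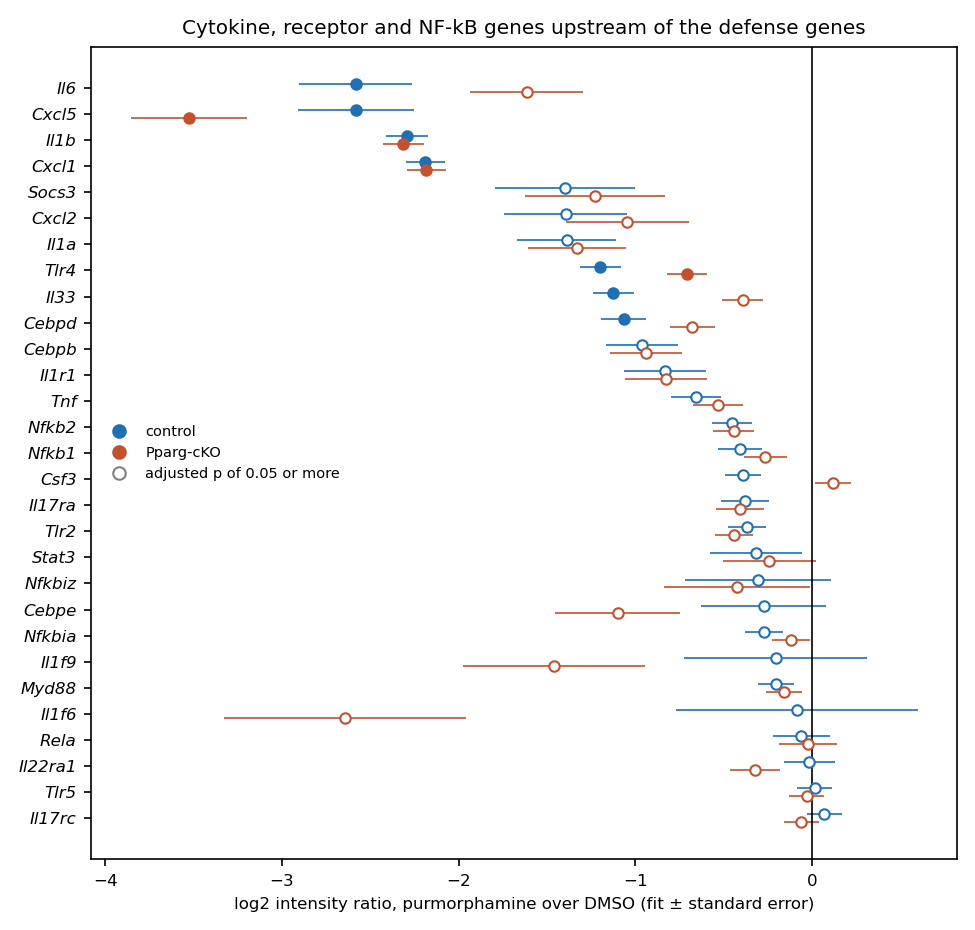
Points give the fitted log2 ratio of purmorphamine over DMSO with its standard error for the 29 upstream genes in control (blue) and *Pparg-cKO* (red), ordered by the control value, and filled symbols have an adjusted p under 0.05. *Il1b* and *Cxcl1* lie near the same value in both genotypes, and 7 control and 4 *Pparg-cKO* points are filled, all below 0.

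Among 29 further secreted antimicrobial genes, of which 19 were tested, 2 fell in control and 5 fell and 1 rose in *Pparg-cKO*. *Reg1* and *Wfdc12* fell in both genotypes, *Reg1* with -1.69 and -2.43 and *Wfdc12*, of the whey acidic protein family, with -1.60 and -1.97. *Reg3b*, a close relative of *Reg3g*, fell by 2.94 in *Pparg-cKO* (adjusted p 0.046) and had a value of -3.13 in control (adjusted p 0.068), and in *Pparg-cKO* *Umod* fell by 2.25, while *Wfdc1* rose by 1.77. Of 16 acute phase and complement genes tested, 4 fell in control (*C3*, *Saa1*, *Saa2*, *Cd14*) and 3 in *Pparg-cKO* (*C3*, *Hp*, *Cd14*), and all 16 control values were below 0, with a median of -0.86. *C3*, the central complement component, gave -1.98 and -2.77. *Saa1* and *Saa2* gave -1.36 and -1.06 in control, and because they are near-identical copies their probes may read each other. Their values in *Pparg-cKO* were -0.51 and -0.062, neither called.

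Of the other whey acidic protein and inhibitor genes, 10 tested, 2 fell in control (*Wfdc12* and *Wfdc21*) and 3 fell and 1 rose in *Pparg-cKO*. This list overlaps that of the secreted antimicrobial genes, so *Wfdc12* is counted in both. *Wfdc21* gave -1.65 and -2.11. Of 13 other *S100* genes, 0 were called in control, where 6 had an unadjusted p under 0.05, and 2 fell in *Pparg-cKO*, *S100a4* with -0.96 and *S100g* with -2.27.

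Leukocyte genes moved with these values. All 10 macrophage and leukocyte genes tested had values below 0 in both genotypes, with medians of -0.86 and -0.85, and 4 fell in control and 5 in *Pparg-cKO*. The summed scaled intensity of the 11 genes on the array was 100315 to 140272 with DMSO and 59506 to 88251 with purmorphamine in control, and 110049 to 124475 against 71208 to 73202 in *Pparg-cKO*. *Ptprc*, the pan-leukocyte marker, was well above background in all channels, at 493 to 602 with DMSO and 326 to 438 with purmorphamine. *Adgre1*, the macrophage marker F4/80, fell by 1.06 in *Pparg-cKO* (adjusted p 0.038). Of 8 neutrophil genes tested only *Mmp9*, which macrophages and epithelium also express, passed the test, with -1.68 in control and -2.40 in *Pparg-cKO*. The neutrophil values were below 0 for 7 of 8 genes in control and 8 of 8 in *Pparg-cKO*, with medians of -0.54 and -0.41, and 5 and 4 of them had an unadjusted p under 0.05. The defining markers *Mpo*, *Elane*, *Ly6g*, *Csf3r*, *Ptprc*, *Adgre1* and *Csf1r* were well above background in all 8 channels, so none was at 0. The part of leukocytes in the decrease of the defense genes was not tested. Of 9 urothelial genes, 1 rose and 1 fell in control and 4 rose and 1 fell in *Pparg-cKO*, with 4 values below 0 and a median of 0.47 in each genotype. *Upk1b*, which encodes a uroplakin, rose by 0.89 and 1.72, and *Epcam*, an adhesion molecule of epithelia, fell, with -0.96 and -0.81.

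To learn whether the genes depend on *Pparg*, *Pparg-cKO* pools were compared with control pools of the same treatment. With DMSO 0 of the 10 genes passed the adjusted threshold, where 3.85% of all genes did, and 3 had an unadjusted p under 0.05 (*Defb1*, *Saa3* and *Ltf*), where 3238 of all 20522 genes did. *Ltf* entered only through the *Pparg-cKO* groups, where it was higher, so its p is no test and its part in this count is a description. The limma fit with purmorphamine also called 0 of 10, where 3.02% of all genes were called, and 1 had an unadjusted p under 0.05 (*Defb1*), where 3188 of all genes did. The medians of the 10 values were 0.56 with DMSO and 0.063 with purmorphamine, against 0.0033 and -0.0049 over all genes tested. Both medians include *S100a9* and *Ltf* and are a description, and the sign of the DMSO median rests on the female *Pparg-cKO* pool. With that array left out, *S100a8*, *Lcn2*, *Slpi* and *Camp* turned to -0.51, -0.29, -0.74 and -0.36 with DMSO. *S100a9*, *Ltf* and *Defb1* stayed above 0, and *Saa3*, *Reg3g* and *Wfdc2* stayed below 0. The 2 pools of each genotype did not overlap for 5 of 10 genes with DMSO and for 5 of 10 with purmorphamine, near the 42.8% and 47.7% of all genes for which this held. The comparison of *Pparg-cKO* with control under DMSO and that of purmorphamine with DMSO in *Pparg-cKO* use the same *Pparg-cKO* DMSO pools, so that a high value there raises the first and lowers the second.

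*Defb1* had all 4 *Pparg-cKO* pools above the 4 control pools, which held in either direction for 13.4% of all genes tested. *Ltf* did too, but it was well above background in only 1 of the control pools. *Defb1* was at 9.89, 8.00, 8.75 and 8.61 in control pools (male and female with DMSO, then with purmorphamine) and at 10.73, 10.88, 10.42 and 10.28 in *Pparg-cKO* pools. The difference was 1.86 with DMSO (standard error 0.52, adjusted p 0.13), a 3.64-fold higher level, and 1.67 with purmorphamine (standard error 0.52, adjusted p 0.18), or 3.18-fold. The male and female pairs gave 0.84 and 2.89 with DMSO and 1.67 and 1.67 with purmorphamine. *Ltf* with DMSO was at 7.77 in *Pparg-cKO* and 6.92 in control in the male pools, a difference of 0.85. In the female pools it was at 11.83 in *Pparg-cKO* and not well above background in control, so no fitted difference is given. With purmorphamine neither control pool was well above background. The mean *Pparg-cKO* level lay 2.86-fold above the bound taken from the lowest signals well above background. The *Pparg-cKO* pools were uneven, at 7.30 (male) and 8.35 (female), so the fold does not hold for each pair. *Ltf* was not called there, and the bound is a description, as the gene entered only through the *Pparg-cKO* groups. Without the female *Pparg-cKO* array *Defb1* stood at 1.78 with DMSO. It stood at 2.81 without the male control array and at 0.92 without the female control array.

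*Saa3* had a lower level in *Pparg-cKO* with DMSO, a mean of 12.67 ± 0.084 (SD, n = 2) against 14.15 ± 0.77 (SD, n = 2) in control. The fitted difference was -1.48 (standard error 0.44, adjusted p 0.15), and the pairs gave -1.96 and -0.998. With purmorphamine it was -0.61, from -1.37 (male pools) and 0.15 (female pools). *Saa2* fell by 1.28 in *Pparg-cKO* with DMSO (adjusted p 0.015), and *Saa1* had a value of -1.27 (adjusted p 0.12). All 16 acute phase and complement genes tested had values below 0 with DMSO and with purmorphamine, with medians of -0.62 and -0.42. Of them 1 and 2 were called, where 3.85% and 3.02% of all genes tested were called in either direction.

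*S100a8*, *Slpi*, *Camp* and *Lcn2* had opposite signs in the pairs with DMSO. *S100a8* gave -1.42 and 5.97, *Slpi* -1.43 and 2.39, *Camp* -0.59 and 1.87 and *Lcn2* -0.57 and 1.03. For these 4 genes the *Pparg-cKO* and control pools overlapped. *S100a9* gave -1.14 between the male pools, and between the female pools it was at 14.87 in *Pparg-cKO* and not well above background in control, so no fitted difference is given. Without the female *Pparg-cKO* array the values were -0.51 for *S100a8*, -0.74 for *Slpi*, -0.36 for *Camp* and -0.29 for *Lcn2*. *Reg3g* and *Wfdc2* differed by -0.33 and -0.21 in the fit with DMSO, and by -0.47 and 0.0078 with purmorphamine.

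**Figure D5:**
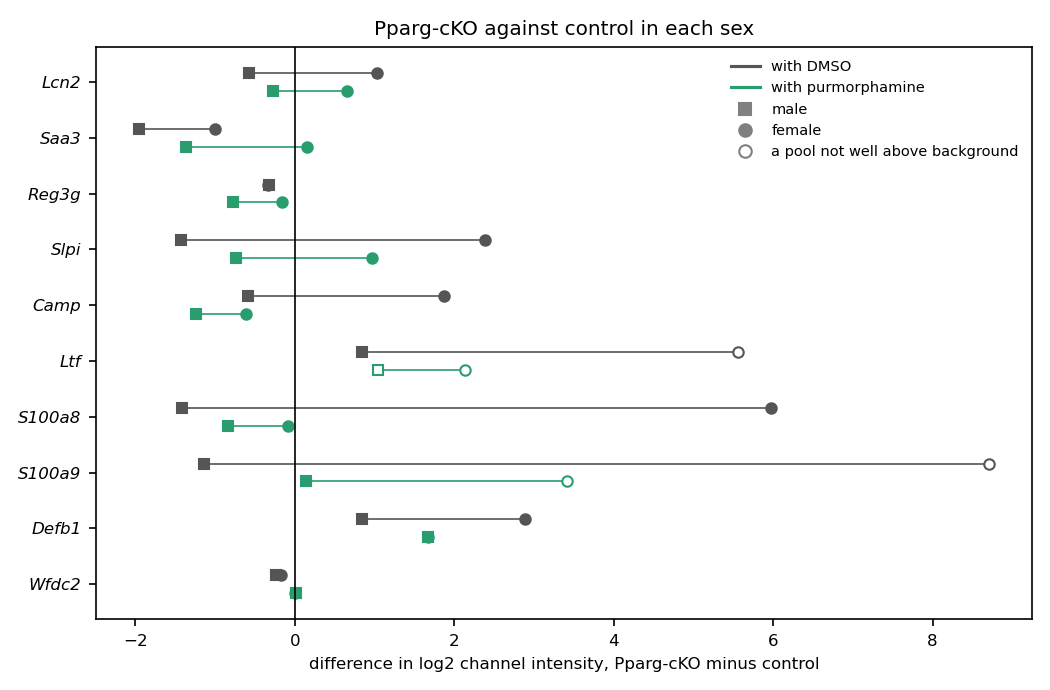
For each gene, the difference in log2 channel intensity, *Pparg-cKO* minus control, is shown between male pools (square) and female pools (circle) with DMSO (grey) and with purmorphamine (green), and open symbols mark pairs with a pool not well above background, whose distance from 0 is not a measured difference. *Defb1* lies above 0 in all 4 pairs, and *S100a8* with DMSO spans -1.42 to 5.97.

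Among the 19 further secreted antimicrobial genes tested, 4 rose and 2 fell in *Pparg-cKO* with DMSO, where 3.85% of all genes tested were called. *Pglyrp1*, a peptidoglycan recognition protein gene, rose by 2.76, *Umod* by 2.37, *Reg1* by 1.71 and *Defb2*, a defensin gene of the family of *Defb1*, by 0.82, and *Bpifb1* and *Ang* fell, with -3.66 and -0.78. *Pglyrp1* and *Reg1* rose and *Bpifb1* and *Ang* fell with purmorphamine too. Of the upstream genes *Csf3*, the growth factor of granulocytes, rose by 1.20 with DMSO and 1.71 with purmorphamine, and *Il17rc*, a subunit of the IL-17 receptor, fell, with -0.65 and -0.78. No neutrophil, macrophage or leukocyte gene that was tested was called in either genotype comparison by limma. In each, 1 neutrophil gene, but 0 macrophage and leukocyte genes, had an unadjusted p under 0.05. *Ngp* and *Cxcr2*, which were highest in the female *Pparg-cKO* pool with DMSO, did not enter the test and could not be called.

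To see whether *Pparg* changes the response to purmorphamine, the response was compared between the genotypes. 0 of the 10 genes passed, and 0% of all genes did, while 675 of them and 2 of the 10 (*Saa3* and *Camp*) had an unadjusted p under 0.05 in limma. The response of *Saa3* was smaller in *Pparg-cKO* in both sexes and that of *Camp* larger in both sexes, with differences of -0.65 and -2.49.

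For the 2 genes called in a comparison, the genes with the most similar level over the 8 channels were listed, with the 8 channels sharing 4 arrays. These r values describe the profiles only. *Lcn2* ran closest to *Enpp3* (Pearson's r 0.99), *Ccne1* (0.99) and *Nup50* (0.98), and *Saa3* to *Tnfaip3* (0.98), *Slc25a25* (0.98) and *Pvalb* (0.97).

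The sequence before the start of transcription was read from RefSeq (GRCm38.p6) for 9 of the 10 genes. It is shown for the 4 genes that were lower on all 4 arrays by at least 1.5-fold, because these moved together. The 250 bases before the start lie at chr2:32387740-32387989 for *Lcn2*, chr7:46715677-46715926 for *Saa3*, chr2:164356508-164356757 for *Slpi* and chr6:78468875-78469124 for *Reg3g*, all on the minus strand, and are written on the strand of the gene. Capitals mark matches to TTGCNNAA, the core of a C/EBP site, on either strand, of which *Reg3g* has none here.
Lcn2: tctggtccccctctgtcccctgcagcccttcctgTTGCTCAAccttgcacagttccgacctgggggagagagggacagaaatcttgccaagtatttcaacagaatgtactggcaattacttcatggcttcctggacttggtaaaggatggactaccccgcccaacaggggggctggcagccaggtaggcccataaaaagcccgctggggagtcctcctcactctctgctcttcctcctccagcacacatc
Saa3: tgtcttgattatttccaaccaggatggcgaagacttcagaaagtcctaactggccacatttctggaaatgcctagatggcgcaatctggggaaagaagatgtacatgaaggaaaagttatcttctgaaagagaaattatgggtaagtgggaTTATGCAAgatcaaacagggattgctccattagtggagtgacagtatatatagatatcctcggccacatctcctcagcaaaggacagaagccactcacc
Slpi: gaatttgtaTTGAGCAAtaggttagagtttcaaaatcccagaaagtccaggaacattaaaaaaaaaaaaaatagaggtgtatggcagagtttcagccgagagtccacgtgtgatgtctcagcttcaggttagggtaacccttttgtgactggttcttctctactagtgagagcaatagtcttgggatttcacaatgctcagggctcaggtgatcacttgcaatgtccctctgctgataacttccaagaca
Reg3g: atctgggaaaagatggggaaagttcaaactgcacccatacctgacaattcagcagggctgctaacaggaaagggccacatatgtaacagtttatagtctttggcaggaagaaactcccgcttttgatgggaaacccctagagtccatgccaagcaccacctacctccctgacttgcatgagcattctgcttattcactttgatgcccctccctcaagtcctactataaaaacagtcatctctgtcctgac

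The C/EBP core was found in the window of 250 bases before to 50 after the start in 5 of 9 genes, *Lcn2*, *Saa3*, *Slpi*, *S100a9* and *Ltf*, and in 10.8% of 27025 promoters of the same length. It lay between bases -216 and -209 from the start in *Lcn2*, between -99 and -92 in *Saa3* and between -241 and -234 in *Slpi*. The GLI core CCACCCA was found in *Ltf* only and in 9.32% of all promoters, and it overlapped no other match. The cores GGANNNTCC for NF-kB, TTCNNNGAA for STAT and TGANTCA for AP-1 matched none of the 9, and they matched 8.57%, 8.47% and 7.93% of all promoters. A repeat of AGGTCA spaced by 1 base, the element of PPAR dimers, matched none of the 9 and 0.044% of all promoters. These are matches of letters in a short window and not measurements of binding.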

How the data were processed

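The genes and the gene lists were chosen with earlier results of these data known. RNA of each pool was labelled with AlexaFluor555 or AlexaFluor647 and hybridized by the authors to Agilent arrays, and the deposited scanner files were made with Agilent Feature Extraction (10.7.3.1 in the submitters' processing notes). Per the file headers, the mean and background intensity of each spot were deposited without normalization, and the processed intensity had background and dye bias removed by the scanner software. The deposited log10 ratio, the red over the green processed signal, was used to check the direction of the dyes (r of 0.92 to 0.93 with the ratios used here). The deposited score that comes with the series holds, per probe, purmorphamine against DMSO as a fold change with a sign, and how it was normalized is not stated.

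Intensities were background corrected with limma (3.58.1) in R (4.3.3) by normexp with an offset of 50, normalized by loess within arrays and Aquantile between arrays, and the 4 spots of a probe were averaged without control spots and outlier flags. Purmorphamine effects were fitted to the log ratios of the 4 arrays with lmFit and eBayes, and genotype differences to the 8 single channels with lmscFit (correlation within a spot 0.040). The brightest probe stood for a gene. Probes that passed the scanner's background flag in both pools of 1 or more groups entered, and p-values were adjusted by Benjamini-Hochberg over the 20522 genes tested with a threshold of 0.05. A gene not well above background in 1 whole group was given a bound, the mean of the brighter group against the mean, over the channels of the dimmer one, of the lowest signal well above background or the gene's own signal if higher. The number of arrays limits the precision, and p-values measure the spread between 2 pools per group, whose sexes and dyes also differ. The fits were tested on simulated data.

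The genes named in the text are all 10 defense genes, up to 4 called genes per direction of each list, defining markers, the 3 closest profiles of each called gene among named genes, and genes that the text says were chosen after their values were seen. *Mmp9*, *Ngp* and *Cxcr2* belong to the neutrophil list, whose single exceptions were named after their values were seen. Motifs were searched in RefSeq promoters, 1 per gene. Alternatives were the processed signals, no filter on dim probes, the median in place of loess, the mean of a gene's probes, leaving out each array, the replicate number as a block, quantile normalization, the deposited score and the rule of the study's methods (at least 1.5-fold in both pairs and a scaled intensity over 100 in the brighter channel).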

Additional observations from a re-analysis of the deposited data

How the results depend on the processing

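Limits. With 2 pools per group, counts of called defense genes moved under most settings. With purmorphamine in control the count was 1 in the main analysis and 0 with the processed signals, with no filter on dim probes and with the deposited score, 4 by the rule of the methods (*Lcn2*, *Saa3*, *Slpi* and *Reg3g*), and 0 to 3 without 1 array, 0 without either control array. With purmorphamine in *Pparg-cKO* it was 2 in the main analysis, 0 with the processed signals, with no filter on dim probes and with the deposited score, 5 by the rule of the methods (the same 4 and *Camp*), and 1 to 7 without 1 array, 1 (*Saa3*) without the female and 7 without the male *Pparg-cKO* array, which did not include *Saa3*. With the processed signals 0 genes of all were called in these comparisons, and 3892 and 4488 had an unadjusted p under 0.05. The genotype count was 0 in the main analysis, 2 by the rule of the methods with DMSO (*Defb1* higher, *Saa3* lower) and 2 with purmorphamine (*Defb1* higher, *Camp* lower), 0 to 4 without 1 array with DMSO (4 without the male *Pparg-cKO* array, 1, *Defb1*, without the male control array), and 0 to 0 with purmorphamine. The difference of the purmorphamine effect had 0 to 2 called genes without 1 array, 2 (*Camp* and *Ltf*) without the male *Pparg-cKO* array. With a scaled intensity over 100 in place of the scanner's flag, 4 in place of 8 genes passed in all 8 channels. In the other settings run for the counts they stayed within 1.5 times. Where leaving out an array left 1 array in a genotype, the spread came from the arrays of the other genotype, so those counts are a description.

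Pools with the same replicate number share sex and dye and not animals. Their deviations correlated at -0.17 between the DMSO pools of the genotypes, 0.48 between the purmorphamine pools and 0.15 between the arrays' log ratios. The main fits did not pair the pools by number and thus hold no term for the sex and dye they share. Adding the number as a block moved the correlation within a spot in the genotype fit from 0.040 to -0.70. With the replicate number as a block, 3 genes were called with purmorphamine in control (*Lcn2*, *Reg3g* and *Saa3*), 3 in *Pparg-cKO*, and 0 in the other comparisons. With crossed numbers, added after seeing the data, 0 defense genes were called by genotype with either treatment.

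Signs turned for small or uneven values. Without 1 array in turn, the genotype difference with DMSO ran from -0.51 to 5.06 for *S100a8*, -0.29 to 0.75 for *Lcn2*, -0.74 to 1.69 for *Slpi* and -0.36 to 1.64 for *Camp*. With purmorphamine it ran from -0.24 to 0.61 for *Lcn2*, -0.48 to 0.71 for *Slpi*, -1.26 to 0.32 for *Reg3g* and -0.060 to 0.075 for *Wfdc2*, which was -0.013 with the processed signals and -0.056 with the median. The purmorphamine effect in control ran from -1.51 to 0.14 for *S100a8* and -1.14 to 0.61 for *Defb1*, and in *Pparg-cKO* from -0.0016 to 0.043 for *Wfdc2*, which was -0.054 with the median. The difference of the effects ran from -4.13 to 0.12 for *S100a9*, -0.52 to 0.44 for *Lcn2*, -1.32 to 0.59 for *Slpi*, -0.92 to 0.64 for *Reg3g* and -1.07 to 0.68 for *Defb1*. The cause was not tested. Of the values of single genes under alternatives, 437 kept direction and side of the threshold, 24 newly passed it, 13 no longer passed it and 26 changed sign.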
